A study of Saccharomyces cerevisiae with 95 samples.

Results

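The binding of 5 general transcription factors at 10 heat shock and chaperone genes of budding yeast was followed by competition ChIP-seq. The genes were SSA1, SSA2, SSA4, SSC1, HSP60, HSP82, HSC82, HSP104, HSP26 and HSP12. For each gene and factor, the site nearest to the annotated start was taken among those whose midpoint lay from 500 bp upstream to 200 bp downstream of it, which gave 44 of the 20232 sites in the series. SSC1 was chosen by its TFIIE HA/Myc values in these data, so its TFIIE values are given as a description, with no test. The other 43 member sites were tested.

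The cells were W303 diploids grown in raffinose and moved to galactose, and no heat shock is named in the methods. In each strain the native promoter of a factor drove its Myc-tagged allele, while the HA-tagged allele was driven by the galactose-inducible GAL1 promoter. All groups shared this arrangement and differed in the factor, the tag and the time. For TFIIA, TFIIE and TFIIF the tagged subunits were Toa1, Tfa1 and Tfg2, and 1 copy of each subunit of the factor was under GAL1. Chromatin was taken for TBP, TFIIA, TFIIB, TFIIE and TFIIF at 8 times, which were 10, 20 and 25 min, then 30, 40 and 60 min, and lastly 90 and 120 min, with 1 library per factor, tag and time, and a Myc library at 0 min was used for TFIIB. No library was replicated, so every p-value measures the scatter of time points about a trend. Total counts in sites ran from 2740185 in the TFIIF HA library at 10 min to 19483568 in a TBP library.

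TBP binds the TATA region, TFIIA and TFIIB hold it there, and TFIIF and TFIIE join with RNA polymerase II to form the preinitiation complex. In competition ChIP the induced HA copy replaces the Myc copy as the latter leaves a site, so both tags and their ratio are read over time. Heat shock genes are classic targets of the activator Hsf1, which binds repeats of the unit nGAAn called heat shock elements, and of the general stress activators Msn2 and Msn4, which bind the stress response element. SSA1, SSA2 and SSA4 encode cytosolic Hsp70 chaperones. SSC1 encodes the Hsp70 of the mitochondrial matrix and HSP60 its chaperonin. HSP82 and HSC82 encode the inducible and the more constitutive Hsp90, HSP104 a disaggregase, HSP26 a small heat shock protein, and HSP12 a small membrane-associated stress protein.

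Promoter stretches of 6 members are shown because they hold the elements by which these genes are usually grouped, and because their courses below differ. They were read 5′ to 3′ on the gene strand from the RefSeq R64 genome (sacCer3). Capitals mark matches to GAANNTTC or TTCNNGAA (heat shock element), to AGGGG or CCCCT (stress response element) and to TATA, A or T, A, A or T, A or G (TATA box), each on both strands. Where matches touch or overlap, the capitals run on.
SSA4: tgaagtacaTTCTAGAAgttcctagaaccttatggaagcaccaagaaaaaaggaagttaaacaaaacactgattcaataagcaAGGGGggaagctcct
HSP104: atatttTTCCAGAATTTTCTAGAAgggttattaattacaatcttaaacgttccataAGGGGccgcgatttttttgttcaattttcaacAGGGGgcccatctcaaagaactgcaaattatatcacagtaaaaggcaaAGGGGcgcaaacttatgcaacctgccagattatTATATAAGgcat
HSP82: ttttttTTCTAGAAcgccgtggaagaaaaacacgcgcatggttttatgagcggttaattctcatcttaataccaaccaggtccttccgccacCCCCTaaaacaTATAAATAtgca
HSC82: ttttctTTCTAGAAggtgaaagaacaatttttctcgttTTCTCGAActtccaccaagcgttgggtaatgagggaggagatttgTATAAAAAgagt
SSC1: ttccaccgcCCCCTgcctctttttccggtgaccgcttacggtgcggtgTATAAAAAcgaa
HSP12: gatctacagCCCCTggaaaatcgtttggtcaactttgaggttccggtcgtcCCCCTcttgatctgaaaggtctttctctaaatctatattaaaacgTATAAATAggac

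The stretches lie at chrV:364327-364424 (+) for SSA4, chrXII:88315-88495 (+) for HSP104, chrXVI:98752-98866 (−) for HSP82, chrXIII:632132-632226 (+) for HSC82, chrX:521805-521864 (−) for SSC1 and chrVI:107015-107122 (+) for HSP12, all upstream of the coding start. In the 500 bases before the start, the heat shock element was found in 8 of 10 members and in 35.2% of 6000 promoters, and a longer form with 3 alternating units in 4 of 10 members (SSA1, SSA2, HSP60 and HSP104) and in 1.48% of promoters. The stress response element was found in 7 of 10 members and in 34.1% of promoters, and the TATA box in 9 of 10 members and in 52.1% of promoters. HSP12 held 5 stress response elements and no match to the heat shock element. SSC1 held 1 stress response element and no match to the heat shock element, and SSA4 was the member with no match to the TATA box. In a shorter window, 250 bases before to 50 after the start, the heat shock element was found in 5 of 10 members and 22.6% of promoters. Its longer form was found there in 2 of 10 and 0.783%, and the stress response element in 5 of 10 and 21.6%. The TATA box was found there in 9 of 10 and 37.7%. A match to letters is not a bound site.

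The rule found a site at all 10 genes for TFIIB, TFIIE and TFIIF, at 9 for TFIIA and at 5 for TBP (SSA4, HSP60, HSP104, HSP26 and HSP12). Coordinates are given as in the site names, which do not say whether they count from 0 or 1. The TFIIE sites ran, for example, over chrX:521468-522147 at SSC1 (YJR045C), chrI:141178-142504 at SSA1 (YAL005C), chrV:364033-364490 at SSA4 (YER103W), chrXIII:631914-632632 at HSC82 (YMR186W) and chrVI:106856-107293 at HSP12 (YFL014W). The farthest midpoint inside the window was 451.5 bp upstream, at HSP26 in TFIIA. The nearest one outside was 509 bp upstream, at HSP12 in TFIIA. Some sites served another promoter too. The SSA1 site was also the nearest to the start of EFB1, which encodes a translation elongation factor subunit, and the SSC1 site reached the divergent gene TAH11, so reads there cannot be split between both genes. In the SSA2 site of TFIIA, 26.0% of 50-base words occurred elsewhere in the genome. The TFIIB, TFIIE and TFIIF sites of SSA2 held no such word.

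Level is given as log2 of counts per bp over the median nuclear site of the same library, with the lowest, median and highest of the 8 times. HSC82 was among the most strongly bound promoters. Its Myc level was 2.47, 3.10 and 3.44 in TFIIB, which was rank 21 of 4033 nuclear sites, and 1.38, 2.28 and 2.54 in TFIIE, rank 21 of 4419. SSA1 followed a like range, with 2.39, 2.74 and 3.23 in TFIIB (rank 47) and 1.24, 2.19 and 2.37 in TFIIE (rank 26). At the other end, HSP12 had a Myc level of −0.74, −0.21 and 0.48 in TFIIE, rank 3354, and SSA4 −0.52, −0.11 and 0.35, rank 2759. In the Myc copy of TFIIE the constitutive Hsp70 and Hsp90 promoters thus lay far above the typical site. Those of SSA4, HSP26 (median −0.12) and HSP12 lay near it. This split did not hold throughout. In TFIIA the HA level of SSA4 had a median of 1.49, rank 34 of 3664, and the Myc level of SSA2 a median of 0.62, rank 296.

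**Figure D1:**
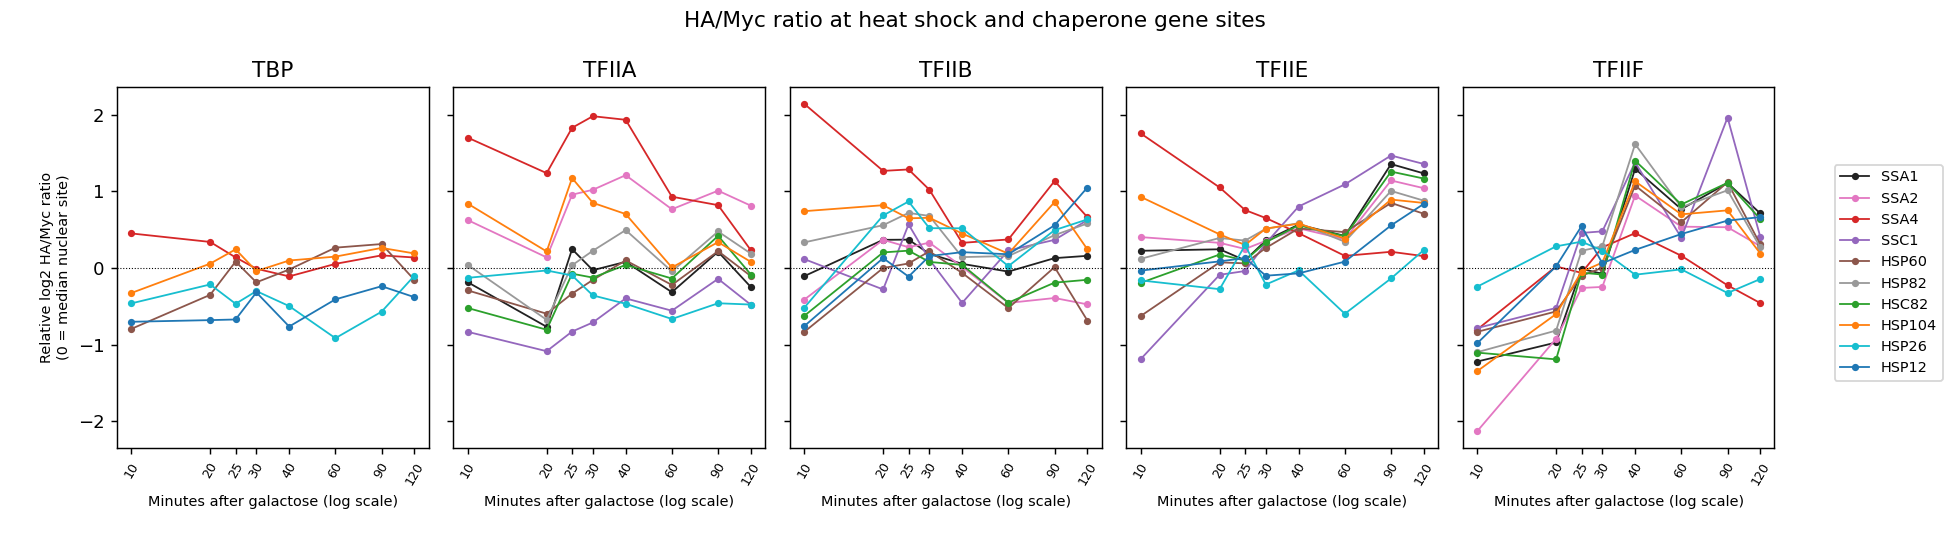
Relative log2 HA/Myc ratio (0 is the median nuclear site of that time point) against minutes after galactose on a log axis, 1 panel per factor and 1 line per gene, each point 1 pair of libraries. SSA4 starts at 1.70 in TFIIA, 2.14 in TFIIB and 1.75 in TFIIE, SSC1 starts lowest in TFIIE at −1.19, and in TFIIF all 10 genes start below 0.

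The relative ratio is log2 of HA over Myc CPM (counts scaled to the library total), with 0.5 added to each, minus the median nuclear site at that time. In the paper's fitted induction curves most of the HA copy was made, on average, well after 10 min. Its kinetic model took a fitted background off the ratio of each site, which the relative ratio does not. A relative ratio at 10 min is therefore not read here as an amount of bound HA copy. The trend of the ratio was fitted for each factor with edgeR as the slope of log2(HA/Myc) per doubling of time. A slope was called at an adjusted p under 0.05 over all sites of the factor. Of 43 member sites, the ratio slope rose at 15 and fell at 2. In TFIIE it rose at 6 of 9 tested members against 29.4% of all sites, and fell at 1 of 9 against 30.9%. In TFIIF it rose at 8 of 10 against 19.4%, and fell at 0 of 10 against 17.1%. In TFIIA it rose at 0 of 9 against 7.6% and fell at 1 against 9.44%, in TFIIB it rose at 1 of 10 against 0.669% and fell at 0 against 0.545%, and in TBP it rose at 0 of 5 against 6.64% and fell at 0 against 1.25%. The median member slope was 0.21 in TFIIE and 0.50 in TFIIF, beside −0.01 and −0.02 over all sites.

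These rises depended on the settings of the fit, and whether they go with the level of a site was not tested. With an offset fitted to level, 0 of 10 TFIIF ratio slopes passed. Such an offset would also remove a change that goes with occupancy. In TFIIE, 1 of 9 rose (HSP12) and 5 fell with that offset, where SSA1, SSA2, HSP82 and HSP104 had slopes of −0.21, −0.17, −0.18 and −0.26 beside the fall at SSA4. After a background was subtracted, the fall at SSA4 was the 1 member call left in TFIIE, and 0 were left in TFIIF. The TFIIF calls also rested on the earliest time. Without 10 min none of the 8 rises passed, and the 1 member called was a fall at HSP26 (slope −0.24, adjusted p = 0.0435). With time on a linear scale 0 members passed. With libraries scaled by their total count in sites all 10 rose, SSA4 and HSP26 included (adjusted p = 0.00748 and 0.0226). That scaling moved the SSA4 slope from 0.03 to 0.57 and the HSP26 slope from −0.09 to 0.44. Shares over all sites were counted only for the fit reported above, so the counts under these other settings are not set against all sites.

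**Figure D2:**
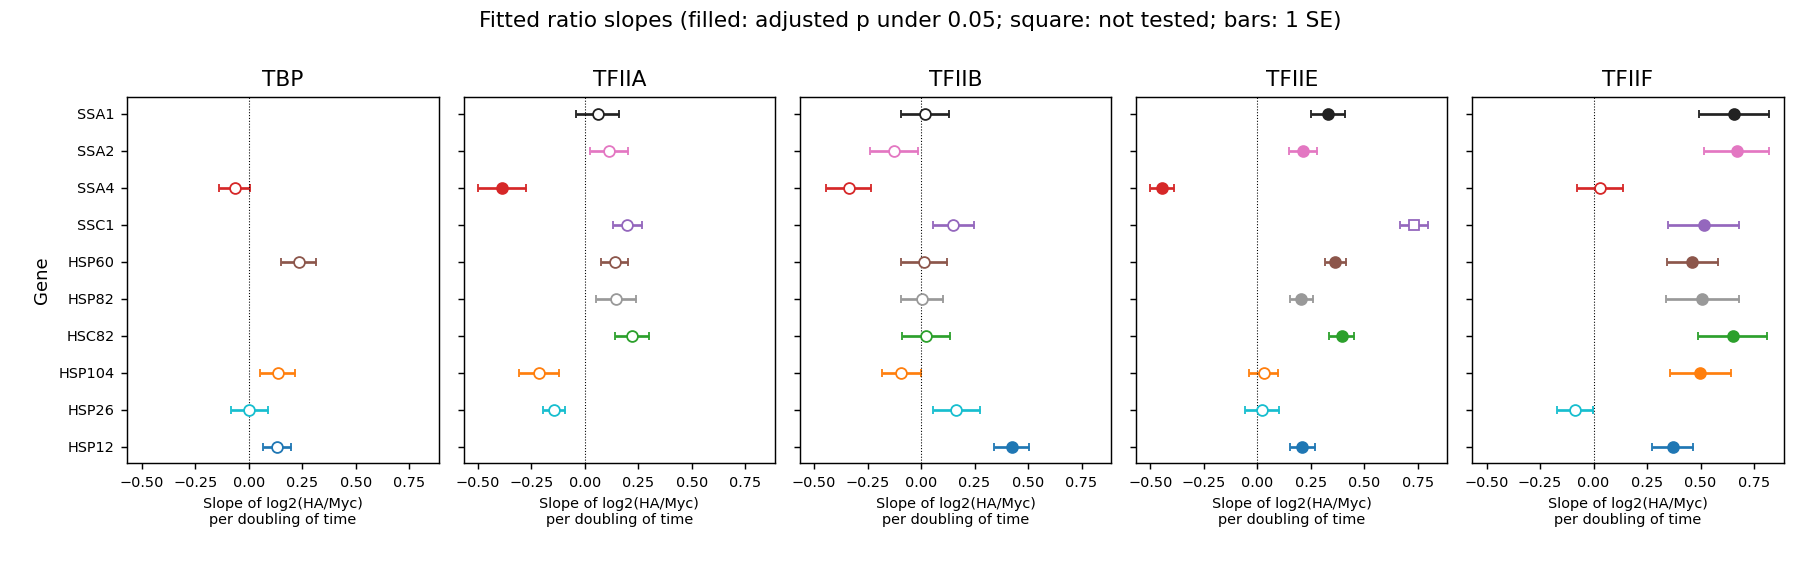
Fitted slope of log2(HA/Myc) per doubling of time (x axis) for each gene (y axis), 1 panel per factor, with bars of 1 standard error. Filled circles passed an adjusted p of 0.05, open circles did not, and the square is SSC1 in TFIIE, which was not tested. SSA4 lies below 0 in TBP, TFIIA, TFIIB and TFIIE and is filled in TFIIA and TFIIE, and 8 of 10 genes are filled above 0 in TFIIF.

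The 2 copies were also fitted alone. The HA slope rose at 8 of 10 members in TFIIF against 22.2% of all sites and fell at 1 (HSP26) against 21.1%. In TFIIB the HA slope rose at 1 of 10 (HSP12, adjusted p = 0.048) against 5.65% and fell at 1 (SSA4) against 3.05%. The HSP12 call was lost with the offset on level (adjusted p = 0.106) and without 20, 25, 30, 40, 90 or 120 min, and its slope of 0.35 was 0.13 without 120 min. In TFIIA it rose at 0 of 9 against 11.5% and fell at 1 (HSP26) against 10.2%, a call lost with the total count, on linear time and without 10, 20, 25, 30, 60 or 90 min (adjusted p from 0.0559 to 0.372). In TFIIE it rose at 1 of 9 (HSP12) against 3.04% and fell at 0 against 3.78%, and in TBP it rose at 0 of 5 against 8.87% and fell at 0 against 7.27%. The Myc slope rose at 3 of 9 members in TFIIE (SSA4, HSP26 and HSP12) against 30.9% and fell at 1 (HSP60) against 29.4%. Elsewhere it fell at 1 of 10 in TFIIB (HSP26) against 9.37%, a call lost without 10, 90 or 120 min (adjusted p from 0.0569 to 0.165). It rose at none in TFIIB against 10.8%, and no member passed in TFIIA (0.217% rising and 0.19% falling among all sites), in TFIIF (0.711% and 0.0547%) or in TBP (0.502% and 1.76%). Among all sites 445 Myc slopes in TFIIA, 574 in TFIIF and 735 in TBP had an unadjusted p under 0.05.

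At SSC1, the mitochondrial Hsp70 gene that was selected by its TFIIE values, the 2 copies of TFIIE moved in opposite directions. The Myc level was 1.73, 1.66, 1.77, 1.72, 1.50, 0.94, 0.40 and 0.32 from 10 to 120 min. The HA level was 0.48, 1.55, 1.71, 2.03, 2.30, 2.06, 1.91 and 1.73 over the same times. Behind these stood 11271 Myc and 2368 HA counts at 10 min, and 2260 Myc and 8261 HA counts at 120 min. The relative ratio went from −1.19, at the 0.317th percentile of nuclear sites, to 1.35 at 120 min, at the 99.7th percentile, with its highest value, 1.47, at 90 min. As a description only, since these values chose the site, its fitted slope was 0.73, and it was 0.39 with the offset on level.

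The 5 sites of other genes whose TFIIE ratio course was nearest to that of SSC1 over 8 times, by root mean square distance in log2 units, were those of SML1 (0.131), the divergent pair UTR5 and HYP2 (0.147), RPS0A (0.150), GAT1 (0.168) and GLY1 (0.173). SML1 encodes an inhibitor of ribonucleotide reductase, HYP2 the translation factor eIF5A, RPS0A a ribosomal protein, GAT1 a GATA transcription activator and GLY1 threonine aldolase. Their relative ratios ran from between −1.21 and −0.82 at 10 min to between 1.15 and 1.41 at 120 min.

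**Figure D3:**
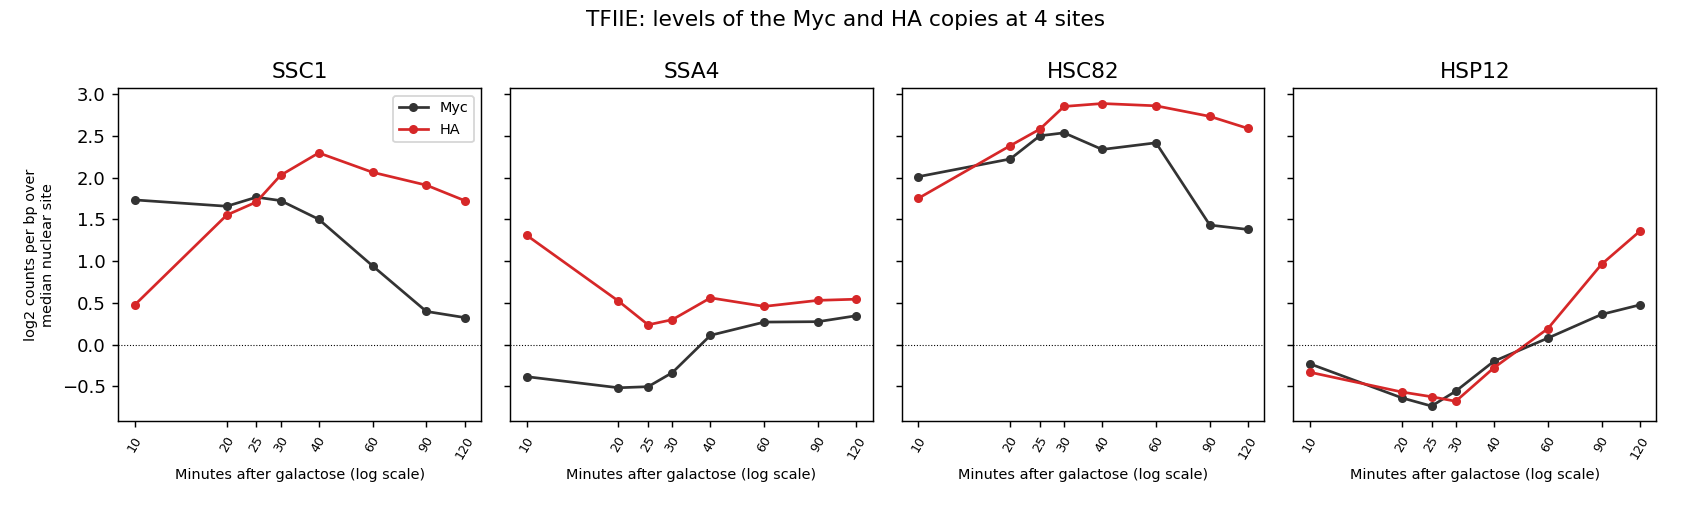
TFIIE level (log2 counts per bp over the median nuclear site) of the Myc copy in black and the HA copy in red at 4 sites against minutes after galactose on a log axis, each point 1 library. The lines cross at SSC1, HA is above Myc at every time at SSA4, and both copies are highest at 120 min at HSP12.

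In TFIIA the Myc level of SSC1 was 1.27, 1.56 and 1.77 (rank 27 of 3664) and its relative ratio was below 0 at all 8 times, from −1.09 to −0.14. The TFIIA ratio slope of SSC1 was 0.20, adjusted p = 0.0636, and it passed with the total count (adjusted p = 0.00607), with the DESeq2 Wald test (0.0231) and without 120 min (0.0175). In TFIIB its Myc level was 1.85 at 0 min and between 0.00 and 1.39 afterwards, with a ratio slope of 0.15, adjusted p = 0.445. In TFIIF the relative ratio of SSC1 was −0.79 at 10 min, 1.38 at 40 min and 0.40 at 120 min, with its highest value at 90 min (percentile 99.9). The TFIIF slope of SSC1 rose by 0.51, with a standard error of 0.17 and an adjusted p of 0.0213, a call lost without 10, 20 or 90 min (adjusted p from 0.0577 to 0.196), with the offset on level (0.873), on linear time (0.235) and after background subtraction (0.249).

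SSA4, the most heat-inducible of these cytosolic Hsp70 genes, had a TFIIE ratio that moved in the direction opposite to that of SSC1. The TFIIE relative ratio of SSA4 was 1.75, 1.05, 0.75, 0.65, 0.45, 0.16, 0.21 and 0.15 from 10 to 120 min, and 1.75 lay at the 99.7th percentile of nuclear sites. The ratio slope fell by 0.45 in TFIIE, with a standard error of 0.055 and an adjusted p of 5.45e-05. The Myc copy rose with a slope of 0.30, adjusted p = 0.00134, from a level of −0.38 at 10 min to 0.35 at 120 min. Both of these calls held in every alternative fit in which the site was kept. The narrow window, whose ratio was refitted alone, drops it, since its midpoint lies 327.5 bp upstream. The HA level was 1.31 at 10 min and between 0.24 and 0.56 at the later times, and its own slope did not pass (adjusted p = 0.217).

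In TFIIA the HA level of SSA4 was 1.56, 1.42, 1.98, 2.0, 1.95, 1.0, 0.86 and 0.32, which ranked 34 of 3664 by its median, while the Myc level stayed between −0.12 and 0.20. The ratio slope fell by 0.39 in TFIIA, with a standard error of 0.11 and an adjusted p of 0.0372. That call was lost without 10, 60, 90 or 120 min, at adjusted p from 0.0722 to 0.15, and after background subtraction (slope −0.75, adjusted p = 0.111). In TFIIB the relative ratio was 2.14 at 10 min, above 0 at all 8 times, and 0.66 at 120 min. The TFIIB ratio slope was −0.34 and did not pass (adjusted p = 0.106). The HA slope fell by 0.35 there, adjusted p = 0.00869, but did not pass without 10 min (adjusted p = 0.0681), without 90 min (adjusted p = 0.0515) or on linear time (adjusted p = 0.0728). In TBP the relative ratio was 0.45 at 10 min and 0.14 at 120 min, and in TFIIF it was −0.80 at 10 min, from 111 HA counts, and −0.46 at 120 min. Neither slope passed (adjusted p = 0.618 and 0.843).

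SSA1 and SSA2, the constitutive cytosolic Hsp70 genes, stood above SSA4 at nearly all times. The Myc level of SSA1 exceeded that of SSA2 in 8 of 8 libraries of TFIIA, TFIIB, TFIIE and TFIIF, with median differences of 1.29, 0.45, 0.54 and 0.31, although the SSA1 site also covers EFB1. The Myc level of SSA2 exceeded that of SSA4 in 8 of 8 libraries of the same factors, by a median of 2.51 in TFIIB and 1.56 in TFIIE. In HA libraries of TFIIA this order did not hold, since SSA2 was higher in 4 of 8. The TFIIA site of SSA2 was 1138 bp wide, with 59.6% of it inside the gene, and that of SSA1 1400 bp. Such widths bear on a level per bp. In TFIIE the ratio slope of SSA1 rose by 0.33, adjusted p = 0.00325, and that of SSA2 by 0.22, adjusted p = 0.0139. With the offset on level both were called falls, with slopes of −0.21 and −0.17. Neither passed after background subtraction, and SSA2 did not pass without 120 min (adjusted p = 0.0792). The relative ratio of SSA1 was between 0.10 and 0.56 up to 60 min and was 1.35 at 90 min and 1.23 at 120 min, where the Myc level was 1.34 and 1.24 after 2.25 at 60 min. In TFIIF the ratio of SSA2 was −2.13 at 10 min, from 124 HA counts, and 0.94 at 40 min.

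The Hsp90 genes differed in level and, in TFIIA and TFIIB, also in the ratio. The TFIIB relative ratio at 10 min was 0.33 at HSP82 and −0.63 at HSC82. It was above 0 at 8 times at HSP82 and at 4 times at HSC82. HSC82 exceeded HSP82 in 8 of 8 libraries of both tags in TFIIA, TFIIB, TFIIE and TFIIF. The median difference was 1.27 for Myc and 0.69 for HA in TFIIB, 1.29 and 1.24 in TFIIE, 0.53 and 0.33 in TFIIA, and 0.46 and 0.24 in TFIIF. In TFIIE the site of HSP82 was 1151 bp wide and that of HSC82 718 bp, which bears on a level per bp. The TFIIE ratio slope rose by 0.39 at HSC82 (adjusted p = 0.0002) and by 0.21 at HSP82 (adjusted p = 0.00538), and both gave negative values with the offset on level. In TFIIF the relative ratio of HSP82 was −1.10 at 10 min, 1.61 at 40 min and 0.27 at 120 min, and that of HSC82 −1.11, 1.40 and 0.64. Both courses were highest at 40 min, so a straight slope describes them poorly.

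HSP60, the chaperonin gene, had a TFIIE Myc level of 0.52, 1.23 and 1.50, with the lowest value at 90 min. Its TFIIE ratio slope rose by 0.37, adjusted p = 0.00012, and its Myc slope fell by 0.21, adjusted p = 0.038. The ratio call did not hold with the offset on level (adjusted p = 0.07), and the Myc slope was −0.012 with that offset (adjusted p = 0.877) and did not pass without 25, 90 or 120 min. In TBP the ratio slope of HSP60 was 0.23, adjusted p = 0.09, and passed without 120 min (adjusted p = 0.00601).

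HSP104, the disaggregase gene, began with a relative ratio above 0 in TFIIA, TFIIB and TFIIE, smaller than that of SSA4. In TBP it began at −0.33. Its relative ratio at 10 min was 0.84 in TFIIA, 0.74 in TFIIB and 0.93 in TFIIE, the last at the 97.1st percentile of nuclear sites. The ratio at 120 min was 0.08, 0.24 and 0.85. It was above 0 at all 8 times in these 3 factors, and its ratio slopes there did not pass (adjusted p = 0.131, 0.645 and 0.725). With the offset on level the HSP104 slope was a called fall of −0.35 in TFIIA (adjusted p = 0.0154) and of −0.26 in TFIIE (adjusted p = 0.00307), the Wald test called the TFIIA fall (adjusted p = 0.0435), and without 10 min the TFIIE slope was a called rise of 0.18 (adjusted p = 0.025). In TFIIF the ratio was −1.35 at 10 min and the slope rose by 0.50, adjusted p = 0.0114.

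**Figure D4:**
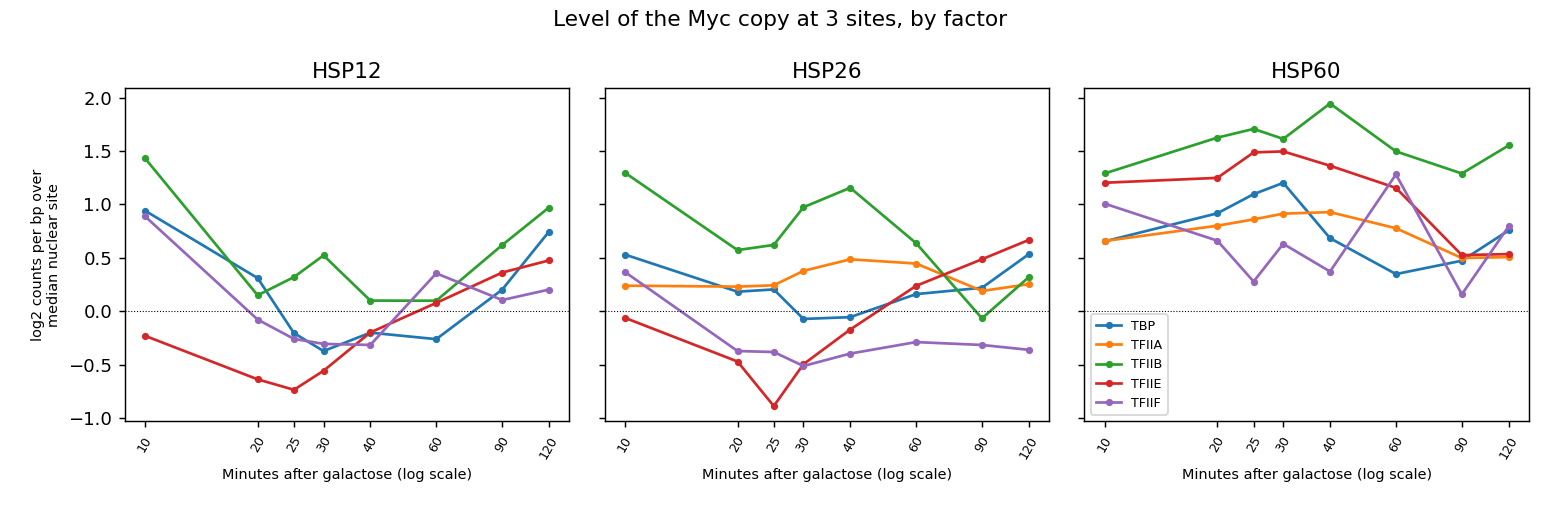
Level of the Myc copy (log2 counts per bp over the median nuclear site) at HSP12, HSP26 and HSP60 against minutes after galactose on a log axis, 1 line per factor and 1 library per point. At HSP12 the value at 10 min lies above those at 20, 25 and 30 min in all 4 factors with a site.

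HSP12 and HSP26 shared a Myc pattern that the other members did not show in TBP, TFIIB or TFIIE. It was chosen after the values were seen. It was common among all sites, so it does not set these genes apart from them. The Myc level at 10 min exceeded those at 20, 25 and 30 min at both genes in TBP, TFIIB and TFIIE, and at none of the other members there, beside 25%, 22.8% and 30.2% of nuclear sites. In TFIIF all 10 members met it, beside 37.5%, and in TFIIA no member did, beside 27.2%. In TBP the Myc level of HSP12 was 0.94, 0.31, −0.20, −0.37, −0.20, −0.26, 0.20 and 0.74 from 10 to 120 min. In TFIIB it was 0.29 at 0 min, 1.43 at 10 min, 0.15 at 20 min and 0.97 at 120 min. Its Myc slopes in TBP and TFIIB, which see only a straight trend, did not pass.

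Late in the course both copies of TFIIE were higher at these genes. At HSP12 the TFIIE Myc level was between −0.74 and −0.56 from 20 to 30 min and 0.48 at 120 min, and the HA level was −0.68 at 30 min and 1.36 at 120 min. The Myc slope rose by 0.30, adjusted p = 0.00638, and the HA slope by 0.52, adjusted p = 0.0312. The Myc call held in every alternative fit, while the HA call was lost without 20, 25, 60, 90 or 120 min, at adjusted p from 0.066 to 0.0812. At HSP26 the Myc slope rose by 0.32, adjusted p = 0.0153, and was lost without 120 min (adjusted p = 0.094) and with the offset on level (slope 0.20, adjusted p = 0.0991), and the HA slope was 0.36, adjusted p = 0.0711.

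In TFIIB the HA level of HSP12 was 1.19 at 90 min and 2.03 at 120 min, after 0.22 to 0.70 at the earlier times. The ratio slope of HSP12 rose by 0.42 in TFIIB, with a standard error of 0.083 and an adjusted p of 0.0129, and did not pass without 10 min (adjusted p = 0.0835), without 120 min (adjusted p = 0.0769) or after background subtraction (adjusted p = 0.19). In TFIIF it rose by 0.37, adjusted p = 0.00586. HSP26 went the other way in the HA copy of TFIIF, where the slope fell by 0.18, adjusted p = 0.0113, but was 0.21 when libraries were scaled by their total count in sites. In TBP the relative ratio of both genes was below 0 at all 8 times, between −0.92 and −0.10 at HSP26 and between −0.76 and −0.24 at HSP12.

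At the 5 genes with no TBP site by the rule, a wide TBP interval covered the start and reached into a gene. These intervals were chosen after the data were seen. They were 2503 bp at SSA1, 2856 bp at SSA2, 2689 bp at SSC1, 2898 bp at HSP82 and 2672 bp at HSC82, and 50 of 4385 TBP sites were wider than 2000 bp. The Myc level per bp was 0.68, 1.0 and 1.33 at SSA1, 0.16, 0.79 and 1.26 at HSC82, and −1.12, −0.67 and 0.04 at SSC1. Their relative ratios lay between −0.63 and 0.39 at all times, and promoter and gene body cannot be told apart in them.

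Of 48 other chaperone, cochaperone and regulator genes, 36 had a site in TBP, 42 in TFIIA, 44 in TFIIB, 44 in TFIIE and 40 in TFIIF. The ratio slope rose at 16 and fell at 4 of 44 in TFIIE, beside 29.4% and 30.9% of all sites, and rose at 11 and fell at 1 of 40 in TFIIF, beside 19.4% and 17.1%. It rose at 4 and fell at 2 of 42 in TFIIA (7.6% and 9.44% of all sites), rose at 0 and fell at 2 of 44 in TFIIB (0.669% and 0.545%), and passed at none of 36 in TBP (6.64% and 1.25%). The median slope of these genes was 0.09 in TFIIE and −0.01 in TFIIF, beside −0.01 and −0.02 over all sites.

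Alternative settings were examined for the 10 members only, so whether the calls at these other genes hold under them is not known here. Member rises in TFIIF were lost in several of those settings. The sites of KAR2, YDJ1, JEM1, SIS1 and CPR7 named next were also the nearest to the start of another gene (TAD2, MTQ1, SMC3, LST8 and GEA1), so their reads cannot be split between the genes. The largest rises in TFIIE were at KAR2, the Hsp70 of the endoplasmic reticulum, by 0.60 (adjusted p = 6.49e-06), and at CCT6, a subunit of the cytosolic chaperonin, by 0.58 (adjusted p = 1.34e-05). The largest falls in TFIIE were at BTN2, which encodes an aggregate sorting protein, by 0.26 (adjusted p = 0.00302), and at SSQ1, a mitochondrial Hsp70, by 0.24 (adjusted p = 0.00142). The TFIIB falls were at BTN2, by 0.48 (adjusted p = 0.012), and at APJ1, a J-domain protein gene, by 0.36 (adjusted p = 0.0312). In TFIIA the ratio rose by 0.28 at both YDJ1, a J-domain partner of Hsp70 (adjusted p = 0.0278), and SSB1, a ribosome-associated Hsp70 (adjusted p = 0.0455). It fell in TFIIA at FES1, an Hsp70 nucleotide exchange factor, by 0.28 (adjusted p = 0.0352), and at JEM1, by 0.13 (adjusted p = 0.0469). In TFIIF it rose at SSB2 by 0.65 (adjusted p = 5.94e-05) and at SIS1 by 0.57 (adjusted p = 0.00453), and fell at CPR7, an Hsp90 cochaperone, by 0.25 (adjusted p = 0.0264). Among the falls, the relative ratio at 10 min was 1.55 at BTN2 and 1.02 at APJ1 in TFIIB, 1.32 at BTN2 in TFIIE and 1.20 at FES1 in TFIIA, and it was 0.25 at JEM1 in TFIIA, 0.43 at SSQ1 in TFIIE and 0.75 at CPR7 in TFIIF.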

How the data were processed

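The authors aligned reads to sacCer3 with Bowtie2 2.2.6, as their methods state, called peaks with MACS2 2.1.0.20151222 on early Myc libraries against an input, merged them per factor and counted reads with bedtools. The deposited values are raw counts per site, unscaled. The 10 tables held 81 columns, 40 HA and 41 Myc, of 95 samples; the 10 input libraries and 4 Myc libraries at 0 min were not used here. Since peaks came from Myc libraries, a site bound by the HA copy alone would be missed.

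Counts were fitted per factor in edgeR 4.0.16 (R 4.3.3) by quasi-likelihood tests with TMM scaling, a mean count of at least 10 and Benjamini-Hochberg adjustment over all sites of a factor. Terms of the ratio model were a block for each time point, the tag, and tag by log2(time), on 16 libraries with 6 residual degrees of freedom. Myc and HA were also fitted alone on log2(time) over 8 libraries. The step was also run on simulated counts. These were drawn independently with a fixed dispersion and no trend with level, so that run cannot speak to any dependence on level. Levels, relative ratios and motif matches carry no test. The motif window of 500 bases replaced a shorter one after the data were seen. No protein table was used here, so the identity of paralogous proteins was not computed.

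Member genes and lists were chosen with earlier results of these data known. All 10 members were named, and of the other chaperone genes up to 2 rises and 2 falls of the ratio per factor. Alternatives were DESeq2 1.42.0 size factors and its Wald test, scaling by total count, a loess offset on level, no count filter, linear time in units of 60 min, limma 3.58.1 on ratios after a background equal to the 5th percentile was taken off, a window of 250 bp upstream to 100 bp downstream, a pseudocount of 5, and each time point left out. Figures used matplotlib.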

Additional observations from a re-analysis of the deposited data

Results flagged for a closer look

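In 86 groups of 8 time points (43 tested sites, 2 tags), 8 had 1 library far from the other 7 by Dixon's criterion of 0.526 for the gap over the range, where chance flags about 1 in 20. The time points are ordered, so an early value can stand apart because the course is steep. Of the 8, 7 were at 10 min, and 6 of those in HA libraries.

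The HA level at 10 min was above all later ones at SSA4, with 1.82 in TFIIB against 0.37 to 1.04 later and 1.31 in TFIIE against 0.24 to 0.56. It was below all later ones at HSP60, with −0.19 in TBP against 0.54 to 1.17 and 0.51 in TFIIE against 1.29 to 1.87. It was below them too at HSC82, with 1.78 in TFIIB against 2.72 to 3.46 and 1.75 in TFIIE against 2.38 to 2.89. The Myc level of HSP26 in TFIIF was 0.37 at 10 min against −0.51 to −0.29 later. The HA level of SSC1 in TFIIB was 0.23 at 60 min against 0.66 to 0.94 at the other times.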

How the results depend on the processing

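Counts of called member sites depended on the scaling and on single time points, and the causes were not tested beyond what each setting removes. Shares over all sites were counted only for the main fit, edgeR with TMM scaling on log2(time). The counts under other settings, and with a time point left out, therefore show how member calls moved. They do not show how members compare with all sites. The ratio slope was called at 0 members in TBP, 1 in TFIIA, 1 in TFIIB, 7 in TFIIE and 8 in TFIIF. With a loess offset on level these became 3 in TFIIA, 2 in TFIIB, 6 in TFIIE (1 rise and 5 falls, against 6 and 1) and 0 in TFIIF. Scaling by the total count gave 1 in TBP, 5 in TFIIA and 10 in TFIIF, and the DESeq2 Wald test gave 1 in TBP and 5 in TFIIA. Subtraction of background with limma gave 0 in TFIIA, 0 in TFIIB, 1 in TFIIE and 0 in TFIIF. Linear time gave 0 in TFIIF. The narrow window, which drops member sites, gave 0 in TFIIA and 4 in TFIIE. The HA slope was called at 0 members in TBP, 1 in TFIIA, 2 in TFIIB, 1 in TFIIE and 9 in TFIIF. The total count gave 1 in TBP and 2 in TFIIA, the loess offset 3 in TFIIA, 2 in TFIIE and 1 in TFIIF, linear time 0 in TFIIA, 1 in TFIIB, 2 in TFIIE and 1 in TFIIF, and the Wald test 3 in TFIIA and 3 in TFIIE.

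Some slopes changed sign. With the loess offset, the ratio slopes in TFIIE were −0.21 at SSA1, −0.17 at SSA2, −0.18 at HSP82, −0.054 at HSC82 and −0.26 at HSP104, and those in TFIIF were −0.00561 at SSA1 and −0.094 at HSP82. The Myc slopes in TFIIE were 0.17 at SSA1, 0.19 at SSA2 and 0.17 at HSP104 with that offset, and the HA slopes were −0.29 at SSA1 in TFIIB and −0.051 at SSA1, −0.028 at HSP82 and −0.036 at HSC82 in TFIIF. After background subtraction the TFIIE ratio slope of SSA2 was −0.033. Scaling by the total count gave HSP26 in TFIIF an HA slope of 0.21 and a called rise of 0.44 in the ratio (adjusted p = 0.0226). The share of all sites that rose under that scaling was not counted.

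When 1 time point was left out, between 5 and 8 ratio slopes were called in TFIIE, between 1 and 8 in TFIIF, between 0 and 3 in TFIIA, and 0 or 1 in TFIIB and TBP. For HA the counts lay between 4 and 9 in TFIIF, between 0 and 3 in TFIIA, between 0 and 2 in TFIIB and TFIIE, and 0 or 1 in TBP. For Myc they lay between 2 and 7 in TFIIE, were 0 or 1 in TFIIB and stayed 0 elsewhere. The lowest TFIIF count came without 10 min, where the HA library was the shallowest, and was a fall at HSP26. HA and Myc libraries of a time point were paired in the ratio fit by its time block. A pseudocount of 5 moved no relative ratio by more than 0.106.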
